A study of Mus musculus with 8 samples.

Results

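Matrix metalloproteinases (Mmps), the Adamts proteases and the tissue inhibitors of metalloproteinases (Timps) were taken by symbol from the RNA-seq gene table of C3H10T1/2 cells, a mouse embryonic mesenchymal stem cell line of strain C3H. Every symbol made of Mmp, Adamts or Timp and a number was a member. The rule used no measured value, but the families were chosen with earlier results of these data known. This gave 43 of the 18605 genes in the table, 21 of them Mmp genes, 18 Adamts genes and 4 Timp genes, and 32 of the 43 held enough counts to be tested (15 Mmp, 13 Adamts and 4 Timp genes). The cells carried a non-target control (NC) or an shRNA against *Nap1l2* delivered by lentivirus (KD-Nap1l2), and each kind was sampled uninduced (day 0) or on day 7 of culture in osteogenic medium, the induced groups being called NC-7d and KD-Nap1l2-7d. There were 2 libraries in each of the 4 groups. All cells were grown in DMEM with fetal bovine serum, and the osteogenic medium of the study's methods added dexamethasone, ascorbic acid and β-glycerol phosphate. Cells kept for the same time without induction were not among the groups, so the medium and the days in culture cannot be told apart. The labels do not say which shRNA construct was used, or whether the 2 libraries of a group came from separate cultures, and the p-values then measure only the spread between these libraries.

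Mmps are zinc-dependent enzymes that cut collagens, elastin and other matrix proteins, and most are secreted as inactive proenzymes. Collagenases (*Mmp8*, *Mmp13*) cut fibrillar collagen, gelatinases (*Mmp2*, *Mmp9*) cut denatured collagen and basement membrane collagen, stromelysins (*Mmp3*, *Mmp10*, *Mmp11*) have wider substrates, and membrane-type Mmps (such as *Mmp14*) stay at the cell surface, where Mmp14 activates pro-Mmp2. Adamts proteases are secreted enzymes with thrombospondin repeats that cut proteoglycans, process procollagens or act on fibrillin and other matrix proteins. Timps bind Mmps and block them, and Timp3 also blocks several Adamts enzymes. In bone, matrix turnover of this kind accompanies the replacement of one matrix by another, and *Mmp13* and *Mmp14* are among the enzymes needed for normal skeletal growth.

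The libraries held 17420284 to 19427359 estimated counts, so that a limit of 3 counts, which a count of 0 still allows, came to 0.154 to 0.172 CPM (counts scaled to library size); such limits cover counting error only. *Nap1l2*, the targeted gene, had 3 and 3 counts in NC, 2 and 7 in the libraries labelled KD-Nap1l2, 15 and 5 in NC-7d and 7 and 13 in KD-Nap1l2-7d. These low counts overlapped between the labels at both times and do not check the knockdown, so the knockdown groups are named here by their labels only. All 10 mesenchymal stromal markers looked for were detected, with a summed level of 4998 to 10990 FPKM (fragment counts scaled to transcript length and library depth), while the pan-leukocyte gene *Ptprc* had 0 to 4 counts. The NC-7d libraries differed from each other in several members, with 22.9 times the normalized count of *Mmp13* and 10.3 times that of *Mmp3* in replicate 1, and results that rest on NC-7d are given with this spread. The KD-Nap1l2 pair was also spread, with *Mmp13* at 1.957 and 20.8 normalized counts. Its median absolute log2 difference between libraries was the largest, 0.259 over all genes and 0.292 over the members, against 0.205 and 0.268 in NC-7d. These are bulk samples, in which fewer cells of a type and less RNA per cell cannot be told apart.

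By FPKM, which allows levels to be compared between genes, the inhibitors and the cell-surface activation pair led the family. *Timp2*, the inhibitor that also takes part in pro-Mmp2 activation, had the highest mean over the 8 libraries, at 774 FPKM, and stood at percentile 99.6 of all 18605 genes. *Mmp2* followed with 472 FPKM, *Timp3*, which binds to the matrix, with 347 FPKM, *Mmp14* with 277 FPKM and *Timp1* with 124 FPKM. *Adamts1*, a proteoglycan-cleaving enzyme, led its family with 93.2 FPKM. The next members were far lower: *Mmp19* with 32.8 FPKM, *Adamts5*, a main aggrecanase of cartilage, with 28.5 FPKM, *Mmp11* with 24.0 FPKM, *Adamts2*, the procollagen N-proteinase, with 12.1 FPKM, *Mmp3* with 9.07 FPKM and the neuronal membrane-type *Mmp24* with 8.27 FPKM.

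In the separate libraries, *Timp2* had 843 and 829 FPKM in NC, 818 and 846 in KD-Nap1l2, 756 and 735 in NC-7d and 657 and 711 in KD-Nap1l2-7d. Its induced libraries lay below the uninduced ones with either construct, by a log2 fold change of -0.17 (SE 0.15) in the control cells and -0.28 (SE 0.15) in the KD-Nap1l2 cells, and neither passed the edgeR test (adjusted p = 0.523 and 0.235). *Mmp14* had 259 and 335 FPKM in NC, 240 and 228 in KD-Nap1l2, 350 and 319 in NC-7d and 234 and 251 in KD-Nap1l2-7d. All 4 KD-Nap1l2 and KD-Nap1l2-7d libraries were thus below all 4 control libraries in *Mmp14*, with a log2 fold change of -0.35 (SE 0.16) at day 0 and -0.46 (SE 0.16) at day 7, and edgeR adjusted p-values of 0.405 and 0.553. *Mmp2* had 517 and 501 FPKM in NC, 399 and 511 in KD-Nap1l2, 692 and 283 in NC-7d and 460 and 416 in KD-Nap1l2-7d. The highest and the lowest *Mmp2* level of the series therefore came from the same group, and the groups overlapped in all 4 pairwise comparisons.

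The summed FPKM of the 4 Timp genes was 1082 to 1523 in the 8 libraries, that of the 21 Mmp genes 685 to 1178 and that of the 18 Adamts genes 134 to 212. The Timp sum divided by the Mmp and Adamts sums was 1.25 and 1.23 in NC, 1.43 and 1.48 in KD-Nap1l2, 0.835 and 1.23 in NC-7d and 1.25 and 1.31 in KD-Nap1l2-7d. The lowest of these ratios was that of NC-7d replicate 1, the library with the most *Mmp2*. *Timp2* supplied 55.1 to 68% of the Timp sum and *Mmp2* 41.3 to 62.6% of the Mmp sum, so these sums are mainly statements about a few genes.

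**Figure D1:**
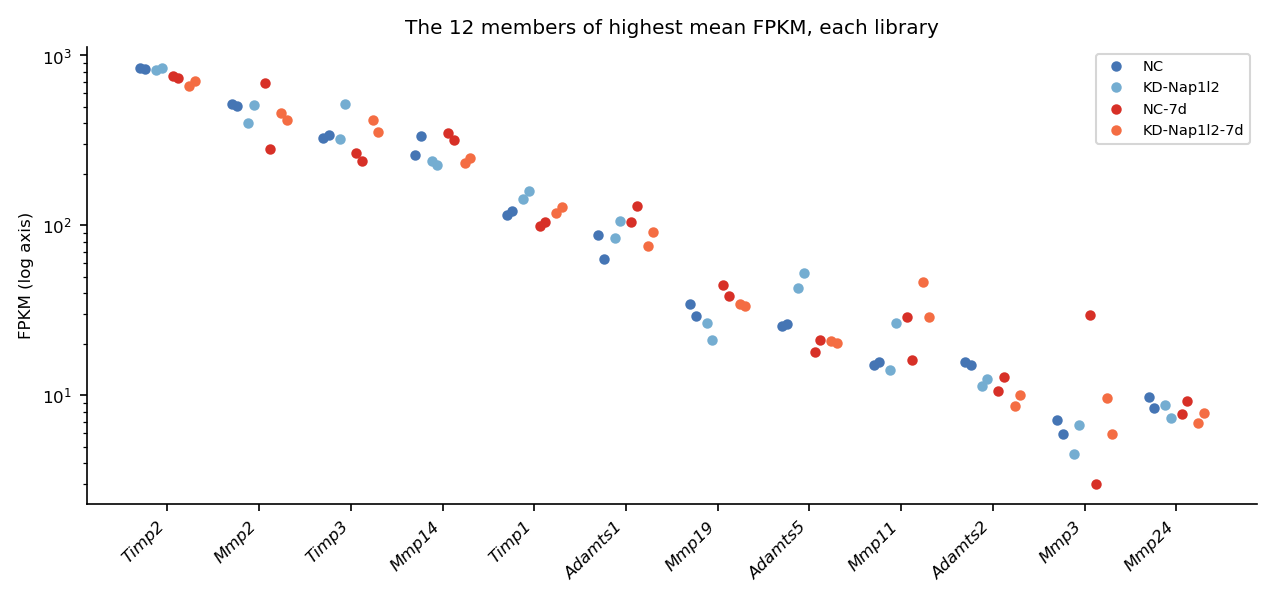
Level in FPKM (log axis) of the 12 members with the highest mean, 1 point per library and 4 groups of 2 libraries, coloured by group. *Timp2* stays between 657 and 846 FPKM in all 8 libraries, while the NC-7d points of *Mmp2* (692 and 283 FPKM) and *Mmp3* (29.7 and 3.03 FPKM) lie far apart.

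Osteogenic induction was the comparison in which members were called when all libraries were fitted with edgeR. A count of 0 calls in the other comparisons, given below, does not show that members were unchanged there. In the control cells (NC-7d against NC), 5 of the 32 tested members had an adjusted p-value under 0.05 in edgeR's quasi-likelihood test, against 8.21% of all 13470 genes tested. *Mmp28*, *Mmp8* and *Timp4* were higher after induction (3 members, against 4.83% of all genes in that direction), and *Mmp9* and *Adamts15* were lower (2 members, against 3.38%). In the KD-Nap1l2 cells (KD-Nap1l2-7d against KD-Nap1l2), 10 of the 32 were called, against 14.2% of all genes. *Timp4*, *Mmp8* and *Mmp28* were again higher (3 members, against 6.84%), and *Adamts16*, *Mmp9*, *Adamts12*, *Adamts5*, *Mmp16*, *Adamts10* and *Adamts15* were lower (7 members, against 7.36%). The shares of members called in either direction, 15.6% and 31.2%, were thus about 2 times the background. They rest on only 5 and 10 of the 32 members. The median log2 fold change was -0.05 over the members and -0.00354 over all genes in the control cells, and -0.16 and -0.00705 in the KD-Nap1l2 cells.

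**Figure D2:**
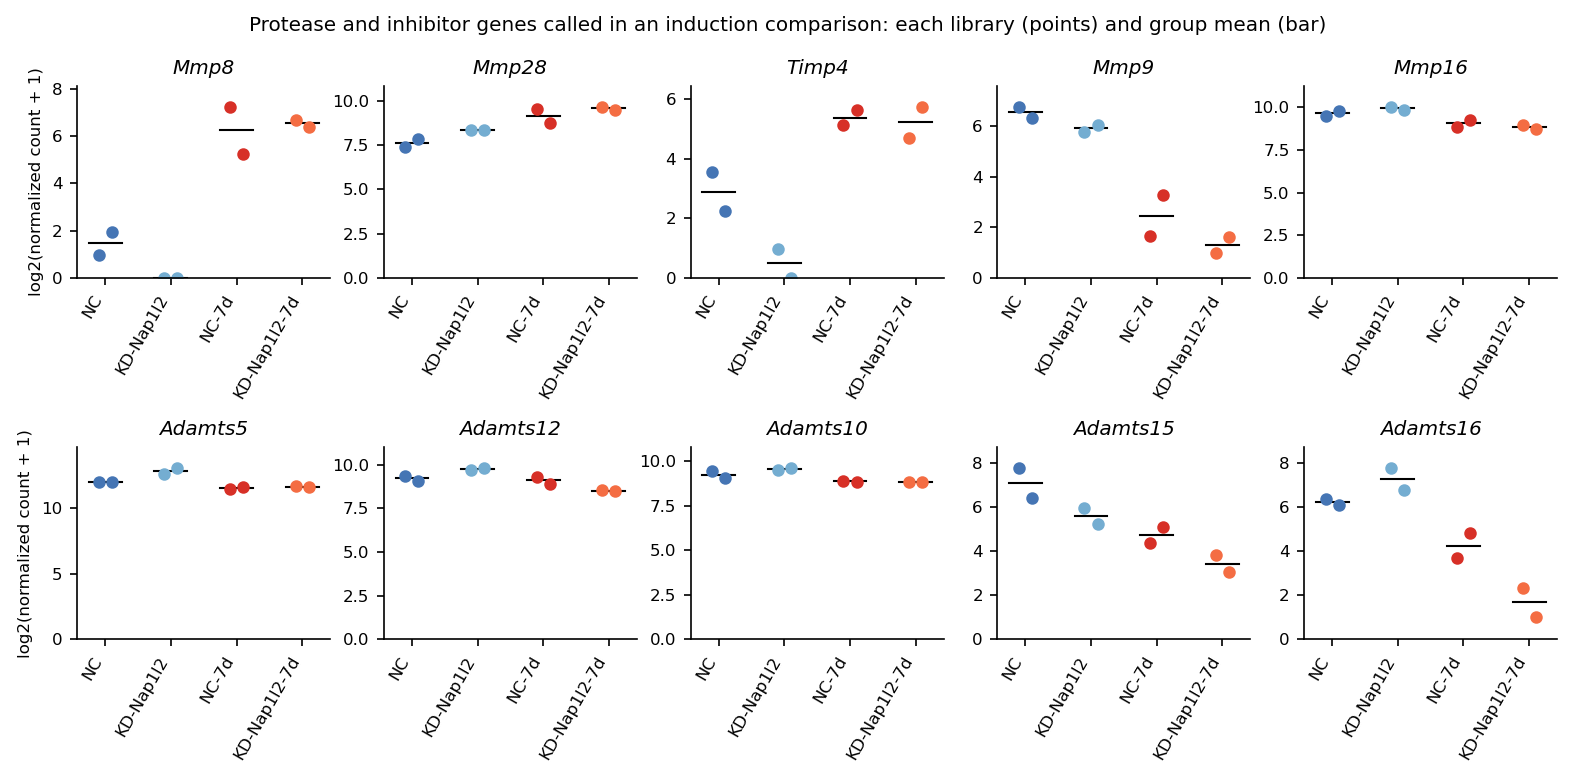
Normalized counts of the 10 members called in an induction comparison, as log2(normalized count + 1), with 1 point per library and a bar at the mean of the 2 libraries of a group. The day 7 points of *Mmp8*, *Mmp28* and *Timp4* lie above, and those of *Mmp9*, *Adamts15* and *Adamts16* below, all day 0 points of the same gene.

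*Timp4*, the least abundant of the inhibitors and the one whose expression in adult tissues is most restricted, was the only Timp called, and it rose with either construct. It had 11 and 4 counts in NC, 32 and 51 in NC-7d, 1 and 0 in KD-Nap1l2 and 25 and 51 in KD-Nap1l2-7d. The induced libraries were all higher than the uninduced ones, from a level close to the limit of detection. In the control cells the log2 fold change was 2.51 (SE 0.63, edgeR adjusted p = 0.0499), and the ratio of the summed counts was 5.83 (95% exact interval 3.34 to 10.9, counting error only). In the KD-Nap1l2 cells the log2 fold change was 5.96 (SE 0.95, adjusted p = 0.00848), with a count ratio of 77.1 and an interval of 13.4 to 3.08e+03 that reflects the single count at day 0. The call in the control cells ended without any of 6 libraries, the 2 each of NC, NC-7d and KD-Nap1l2-7d (adjusted p = 0.0737 to 0.196), and with RLE size factors, a fit of only the libraries compared or a replicate block (0.0511, 0.0673 and 0.0777), and that in the KD-Nap1l2 cells without KD-Nap1l2-7d replicate 2 (0.056). Its log2 fold change was 3.43 without NC replicate 1 and, in the KD-Nap1l2 cells, 8.29 without KD-Nap1l2 replicate 1. *Timp1*, *Timp2* and *Timp3* had log2 fold changes of -0.22, -0.17 and -0.40 in the control cells and -0.29, -0.28 and -0.14 in the KD-Nap1l2 cells, with adjusted p-values of 0.171 to 0.750 in the edgeR test.

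*Mmp8*, the collagenase first known from neutrophils, went from near 0 to a clear signal. It had 1 and 3 counts in NC, 142 and 39 in NC-7d, 0 and 0 in KD-Nap1l2 and 102 and 80 in KD-Nap1l2-7d. All 4 induced libraries were far above all 4 uninduced ones. In the control cells the log2 fold change was 5.53 (SE 0.92, edgeR adjusted p = 0.0167), and the summed counts rose 47.7-fold (95% exact interval 18.3 to 177, counting error only). In the KD-Nap1l2 cells the level was at least 30.7-fold higher after induction, against a limit of 3 counts per library at day 0 (adjusted p = 0.00877). The call in the control cells ended without NC replicate 1 (adjusted p = 0.152) or NC replicate 2 (0.0788), the log2 fold change was 4.20 without NC-7d replicate 1, and the call in the KD-Nap1l2 cells ended without KD-Nap1l2-7d replicate 1 (0.0519). Of 5 neutrophil markers, *S100a9* had 0 to 1 counts, *S100a8* 0 to 13 and *Elane* 1 to 4, and the summed level of the list was 0.2 to 1.14 FPKM at day 0 and 0.49 to 2.48 FPKM at day 7.

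*Mmp8* lies in a run of 8 Mmp genes within 402 kb of chromosome 9 (GRCm38.p6, chr9:7272514-7674968), in the order *Mmp13*, *Mmp12*, *Mmp3*, *Mmp1a*, *Mmp10*, *Mmp8*, *Mmp27* and *Mmp20*, of which 4 were tested. *Mmp13*, the main collagenase of bone and cartilage, had 30.5 and 15.9 normalized counts in NC, 175.5 and 7.67 in NC-7d, 1.957 and 20.8 in KD-Nap1l2 and 208.5 and 122 in KD-Nap1l2-7d. Its induced libraries were above the uninduced ones in the KD-Nap1l2 cells (log2 fold change 3.87, SE 1.30, edgeR adjusted p = 0.0852) and overlapped them in the control cells, where NC-7d replicate 2 had the lowest value of the 4 (log2 fold change 1.97, SE 1.19, adjusted p = 0.350). It was called in the KD-Nap1l2 cells in a fit of only the libraries compared (adjusted p = 0.0266), without a filter on low counts (0.0479) or without NC-7d replicate 1 (0.0143) or 2 (0.0133), and its log2 fold change became 6.32 when KD-Nap1l2 replicate 2 was left out.

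*Mmp3*, or stromelysin 1, which can activate other pro-Mmps, had 235 and 193.5 normalized counts in NC, 993 and 96.8 in NC-7d, 141 and 229 in KD-Nap1l2 and 316 and 195 in KD-Nap1l2-7d. The highest and lowest values again belonged to the 2 NC-7d libraries, and no comparison of *Mmp3* passed the test in the fit of all libraries (edgeR adjusted p = 0.365 in the control cells and 0.743 in the KD-Nap1l2 cells). Without NC-7d replicate 2, the low library, *Mmp3* was called in the control cells (log2 fold change 2.21, adjusted p = 0.0137). *Mmp27*, 2.91 kb downstream of *Mmp8*, was above its day 0 level without overlap in the KD-Nap1l2 cells only. It had 21.7 and 13.1 normalized counts in NC, 19.3 and 22.1 in NC-7d, 0.979 and 3.12 in KD-Nap1l2 and 11.03 and 6.27 in KD-Nap1l2-7d. Its log2 fold change was 0.25 (adjusted p = 0.789) in the control cells and 2.03 (adjusted p = 0.0978) in the KD-Nap1l2 cells. *Mmp12* reached 9.63 normalized counts in NC-7d replicate 1 and at most 6.02 elsewhere, and *Mmp1a*, *Mmp10* and *Mmp20* stayed at 0 to 2.01. In the fit of all libraries, *Mmp8* was the only tested gene of the cluster that was called.

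**Figure D3:**
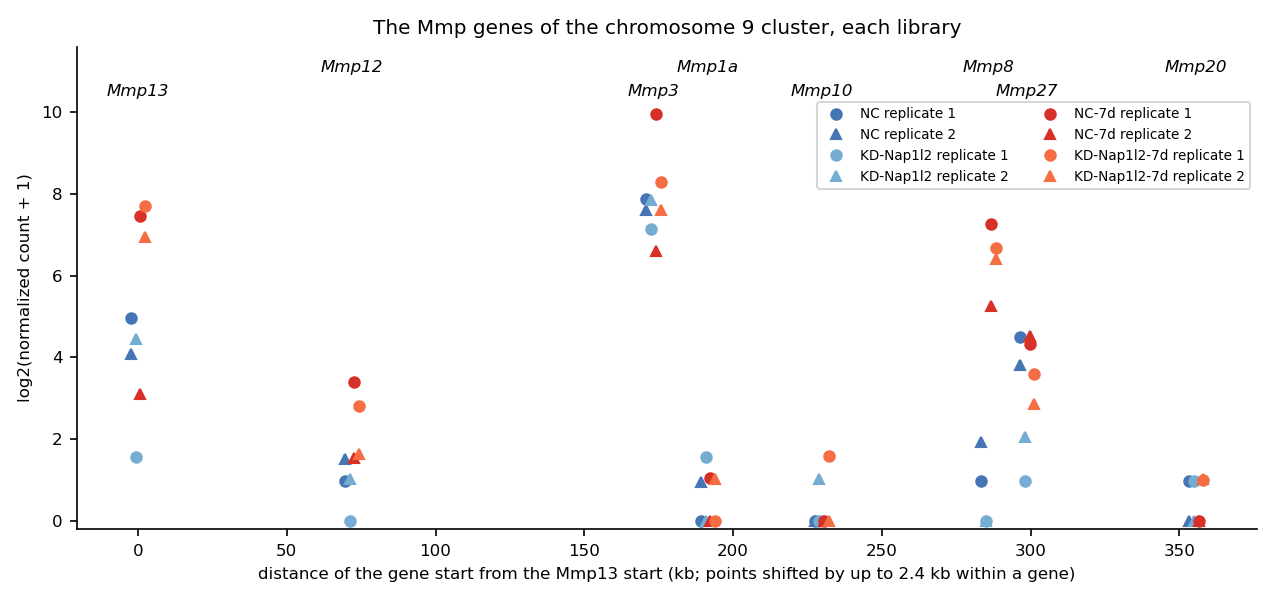
Normalized counts of the 8 Mmp genes of the chromosome 9 cluster, as log2(normalized count + 1), against the distance of each gene's start from the start of *Mmp13* in kb. Colours mark the group and symbols the replicate. *Mmp8* (0 to 2.80 normalized counts at day 0, 37.4 to 152 at day 7) separates by time, *Mmp13* and *Mmp3* have both a high and a low NC-7d library, and *Mmp1a*, *Mmp10* and *Mmp20* stay near 0.

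The promoters of the cluster genes are shown to give the sequence context of these neighbours. RefSeq start regions (GRCm38.p6) were at hand for 29 of the 43 members; they were searched, on both strands and over the 150 bases before the start, for the AP-1 motif TGANTCA, the RUNX motif TGTGGT, the full palindromic glucocorticoid response element and the TATA box TATAAA. The AP-1 letters were found in 6 of the 29 genes, against 4.24% of all 32851 start regions, and all 6 belong to this cluster (*Mmp13*, *Mmp12*, *Mmp3*, *Mmp1a*, *Mmp10* and *Mmp20*), while *Mmp8* and *Mmp27* do not have them in this window. The TATA box was found in 7 of the 29 (against 7.57%) and the RUNX letters in *Mmp13*, *Mmp14* and *Mmp27* (against 8.4%). The full glucocorticoid element was in 0 of the 29, and in 2 of the 32851. The 150 bases before the start of *Mmp13* (chr9:7272364-7272513, plus strand), *Mmp3* (chr9:7445672-7445821, plus strand) and *Mmp8* (chr9:7558279-7558428, plus strand) read, 5′ to 3′ and with the motif matches in capitals:
Mmp13: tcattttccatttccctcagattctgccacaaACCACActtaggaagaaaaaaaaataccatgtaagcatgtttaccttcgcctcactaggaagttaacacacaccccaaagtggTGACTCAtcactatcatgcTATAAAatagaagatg
Mmp3: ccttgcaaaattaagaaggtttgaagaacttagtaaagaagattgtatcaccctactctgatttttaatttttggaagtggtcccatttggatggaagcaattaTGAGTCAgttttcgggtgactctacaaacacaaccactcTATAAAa
Mmp8: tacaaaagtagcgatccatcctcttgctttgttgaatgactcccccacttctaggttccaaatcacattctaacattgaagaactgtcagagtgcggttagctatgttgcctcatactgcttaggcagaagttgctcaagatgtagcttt
The capitals in *Mmp13* are, from left to right, the RUNX letters on the minus strand, the AP-1 letters 35 to 29 bases before the start and the TATA box, and those in *Mmp3* are the AP-1 letters 46 to 40 bases before the start and the TATA box. These matches are a description of letters, and genes with the AP-1 letters included members near 0 in every library (*Mmp1a*, *Mmp10*, *Mmp20*).

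*Mmp28*, also called epilysin, was the third riser. It had 168 and 234 normalized counts in NC, 735 and 433 in NC-7d, 333 and 320.5 in KD-Nap1l2 and 820 and 726 in KD-Nap1l2-7d. All induced libraries were above all uninduced ones, and KD-Nap1l2 was above NC at day 0. The log2 fold change was 1.54 (SE 0.26, edgeR adjusted p = 0.0143), or 2.90-fold, in the control cells and 1.24 (SE 0.26, adjusted p = 0.0206), or 2.37-fold, in the KD-Nap1l2 cells. The first call ended without NC replicate 1 (adjusted p = 0.134) or with only the libraries compared (0.0516), and the second without any library of KD-Nap1l2 or KD-Nap1l2-7d (0.0505 to 0.131). The gene's counts were divided among 3 transcripts, of which the leading one held 27.9 to 91.7% in single libraries, so only the gene's total is used. The bases before the starts of *Mmp28* (chr11:83463041-83463190, minus strand) and *Timp4* (chr6:115252206-115252355, minus strand), the other members called higher, held none of the 4 motifs:
Mmp28: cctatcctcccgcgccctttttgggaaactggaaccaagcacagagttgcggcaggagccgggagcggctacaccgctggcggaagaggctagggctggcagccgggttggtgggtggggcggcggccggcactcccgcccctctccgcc
Timp4: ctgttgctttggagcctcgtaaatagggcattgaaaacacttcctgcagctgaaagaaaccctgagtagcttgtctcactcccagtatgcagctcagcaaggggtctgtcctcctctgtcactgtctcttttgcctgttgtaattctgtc
The *Mmp28* stretch is 70.7% G and C and that of *Timp4* 48.7%, against 38.7% for *Mmp13*, 35.3% for *Mmp3* and 42.7% for *Mmp8*, with a median of 54% over all start regions.

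*Mmp9*, the gelatinase that osteoclasts and macrophages release in bone, was the member that fell most in the control cells. It had 108 and 78.5 normalized counts in NC, 2.14 and 8.63 in NC-7d, 53.8 and 65.6 in KD-Nap1l2 and 1.003 and 2.09 in KD-Nap1l2-7d. The day 0 and day 7 libraries were far apart with either construct. The log2 fold change was -4.05 (SE 0.52, edgeR adjusted p = 0.00522), or 16.6-fold lower, in the control cells and -5.17 (SE 0.64, adjusted p = 0.0033), or 36.0-fold lower, in the KD-Nap1l2 cells, where 3 counts were left and the count ratio was 38.8 (95% exact interval 12.9 to 191, counting error only). The first call ended without NC replicate 1 (adjusted p = 0.0521) and its log2 fold change was -5.37 without NC-7d replicate 2; the second was kept in all 15 alternatives that gave a value. The macrophage markers summed to 8.52 and 6.72 FPKM in NC, 4.72 and 6.58 in NC-7d, 7.37 and 9.83 in KD-Nap1l2 and 8.75 and 12.2 in KD-Nap1l2-7d, so they were lower after induction in the control cells and overlapped in the KD-Nap1l2 cells. *Csf1r*, the macrophage growth factor receptor, had 13.8 and 19.6 normalized counts in NC against 5.35 and 8.63 in NC-7d (log2 fold change -1.23, edgeR adjusted p = 0.178). Of the other tested markers of this list, *Lyz2* was also lower (-1.19, adjusted p = 0.190). *Cd68* was not, with 75.8 and 85.1 normalized counts in NC and 87.8 and 86.3 in NC-7d (0.11, adjusted p = 0.876). In the KD-Nap1l2 cells the log2 fold changes were -0.55 for *Csf1r*, -0.75 for *Lyz2* and 1.11 for *Cd68*. The osteoclast markers summed to 0.05 to 0.24 FPKM at day 0 and 0.28 to 0.41 FPKM at day 7. The part of these cell types in the *Mmp9* values was not tested. The other gelatinase, *Mmp2*, gave -0.05 and -0.06 on the log2 scale (adjusted p = 0.949 and 0.935).

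Of the Adamts family, *Adamts15*, a proteoglycan-cleaving enzyme, fell with either construct. It had 215 and 83.2 normalized counts in NC, 19.3 and 32.6 in NC-7d, 59.7 and 36.4 in KD-Nap1l2 and 13.0 and 7.31 in KD-Nap1l2-7d. Each induced group was below its own day 0 group, and within each time the KD-Nap1l2 libraries were the lower ones. The log2 fold change was -2.51 (SE 0.54, edgeR adjusted p = 0.0303) in the control cells and -2.22 (SE 0.61, adjusted p = 0.049) in the KD-Nap1l2 cells. Each call ended under several alternatives: the first ended without 5 of the libraries (NC replicate 1, both of NC-7d and both of KD-Nap1l2-7d, adjusted p = 0.0584 to 0.200) and with only the libraries compared (0.0654), and the second without any library of KD-Nap1l2 or KD-Nap1l2-7d (0.0705 to 0.237) and in limma on log2(FPKM + 1) or log2(FPKM + 0.1) (0.237 and 0.0613). Without NC replicate 1 the log2 fold change in the control cells was -1.67. Its neighbour *Adamts8*, 20.1 kb away on chromosome 9, was not tested in the fit of all libraries; it had 40.4 and 5.61 normalized counts in NC and 0 to 2.94 in the other 6 libraries, so the NC library with more *Adamts15* also held more *Adamts8*.

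*Adamts16*, an enzyme known to cut fibronectin, had the largest fall of all members in the KD-Nap1l2 cells. It had 79.8 and 67.3 normalized counts in NC, 11.8 and 26.9 in NC-7d, 215 and 106 in KD-Nap1l2 and 4.01 and 1.04 in KD-Nap1l2-7d. The KD-Nap1l2 libraries were the highest of the series and the KD-Nap1l2-7d libraries the lowest. The log2 fold change was -5.91 (SE 0.67, edgeR adjusted p = 0.00239), with a count ratio of 63.5 (95% exact interval 26.9 to 197, counting error only), and it was called in all 15 alternatives that gave a value, although it was -7.10 without KD-Nap1l2-7d replicate 1. In the control cells it was -1.91 (SE 0.51, adjusted p = 0.062), which DESeq2 called (0.00898), as did the fits without a low-count filter (0.0335) and without KD-Nap1l2 replicate 1 (0.0437) or 2 (0.0386). Its log2 fold change there was -2.63 without NC-7d replicate 2.

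*Adamts5* and *Adamts12* fell in the KD-Nap1l2 cells from a day 0 level that was above that of the control cells. *Adamts5* had 3882 and 3920 normalized counts in NC, 2738 and 3083 in NC-7d, 6134 and 8205 in KD-Nap1l2 and 3114 and 3079 in KD-Nap1l2-7d. After induction the 2 kinds of cells were within a similar range, and at day 0 they did not overlap. The log2 fold change was -1.21 (SE 0.16, edgeR adjusted p = 0.00441), or 2.32-fold lower, in the KD-Nap1l2 cells, and -0.42 (SE 0.16, adjusted p = 0.156) in the control cells. *Adamts12*, which cuts the cartilage protein Comp, had 645 and 546 normalized counts in NC, 639 and 484 in NC-7d, 844 and 896 in KD-Nap1l2 and 374 and 353 in KD-Nap1l2-7d. Its log2 fold change was -1.26 (SE 0.17, adjusted p = 0.00418) in the KD-Nap1l2 cells and -0.09 (SE 0.16, adjusted p = 0.793) in the control cells. *Adamts1*, which neighbours *Adamts5* at a distance of 55 kb on chromosome 16, had log2 fold changes of -0.19 (adjusted p = 0.614) and 0.62 (adjusted p = 0.144) in these comparisons.

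*Adamts10*, which binds fibrillin, had 747 and 790 normalized counts in KD-Nap1l2 and 458 and 459.5 in KD-Nap1l2-7d, against 692 and 545 in NC and 486 and 459 in NC-7d. The fall was called in the KD-Nap1l2 cells (log2 fold change -0.74, SE 0.14, edgeR adjusted p = 0.0163) and not in the control cells (-0.39, SE 0.14, adjusted p = 0.149). *Mmp16*, a membrane-type enzyme, had 1062 and 942 normalized counts in KD-Nap1l2 and 500.2 and 419 in KD-Nap1l2-7d, against 721 and 897 in NC and 462 and 621 in NC-7d. For *Mmp16* the log2 fold change was -1.12 (SE 0.19, adjusted p = 0.0102) in the KD-Nap1l2 cells and -0.58 (SE 0.19, adjusted p = 0.106) in the control cells. The calls of *Adamts5*, *Adamts10* and *Mmp16* ended without either KD-Nap1l2-7d library (adjusted p = 0.0519 and 0.0523, 0.122 and 0.114, and 0.0608 and 0.0942), that of *Adamts12* without KD-Nap1l2-7d replicate 2 (0.05005), and that of *Adamts10* also without KD-Nap1l2 replicate 2 (0.0512). The log2 fold changes stayed at -0.70 to -1.41 in all of these.

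**Figure D4:**
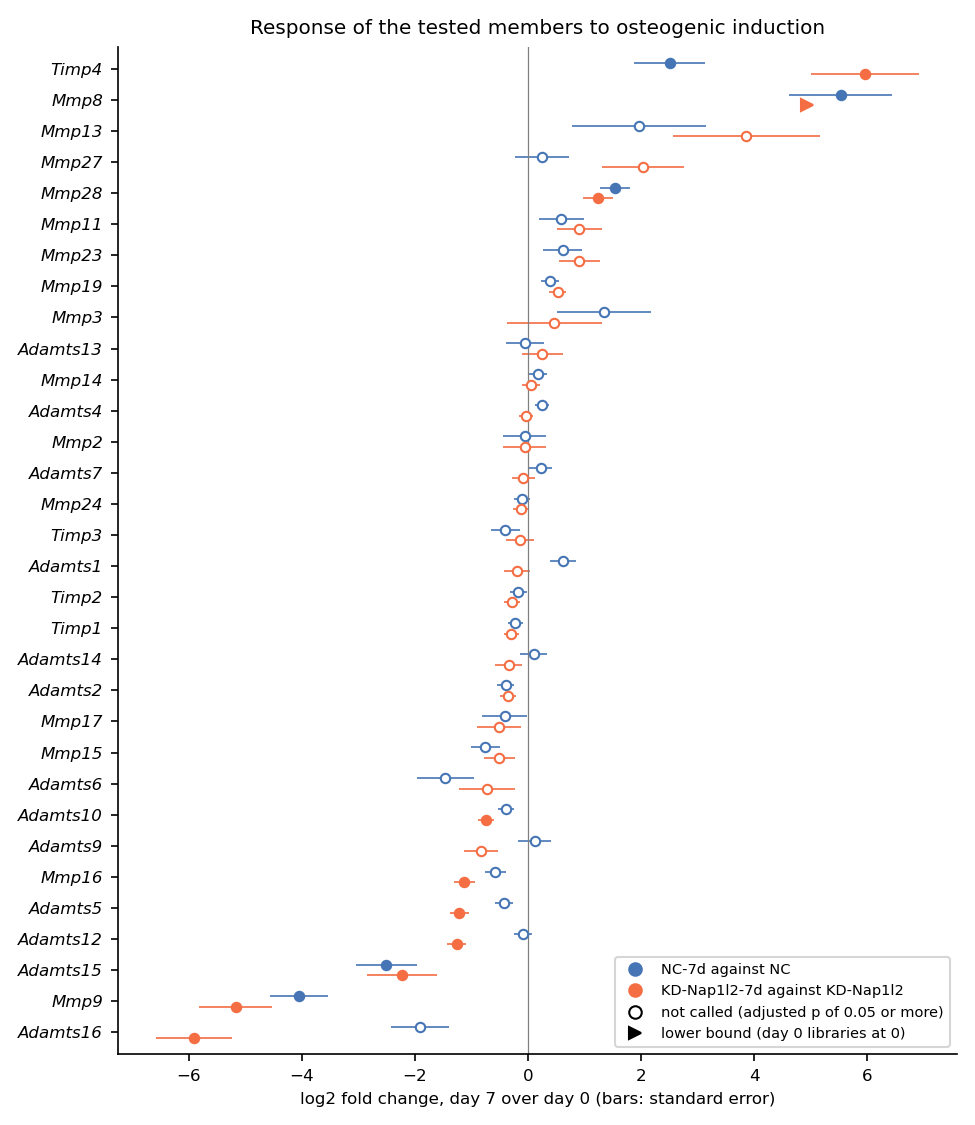
Log2 fold change of day 7 over day 0 for the 32 tested members, in the control cells (blue) and the KD-Nap1l2 cells (orange), with the standard error as a bar; filled points have an adjusted p-value under 0.05. *Mmp8* in the KD-Nap1l2 cells is drawn at its lower bound of 30.7-fold, since both day 0 libraries held 0 counts. *Adamts5*, *Adamts12*, *Adamts16*, *Mmp16* and *Adamts10* are filled in the KD-Nap1l2 cells only.

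Whether the responses of the control and the KD-Nap1l2 cells differed was tested as the difference of the 2 log2 fold changes. By this edgeR test 0 of the 32 members were called, and 0% of all 13470 genes, while 5 members (15.6%) and 7.04% of all genes had an unadjusted p-value under 0.05. DESeq2 called *Adamts12* and *Adamts16* (adjusted p = 0.0176 and 0.0102), and limma called 0. The difference was -1.17 (SE 0.23, edgeR adjusted p = 0.403) for *Adamts12*, -4.00 (SE 0.89, adjusted p = 0.439) for *Adamts16* and -0.79 (SE 0.23, adjusted p = 0.554) for *Adamts5*. For *Timp4* it was 3.46 (SE 1.32, adjusted p = 0.680), for *Adamts1* -0.81 (SE 0.32, adjusted p = 0.681), for *Mmp28* -0.29 (SE 0.37, adjusted p = 0.892) and for *Mmp9* -1.12 (SE 0.92, adjusted p = 0.830). A call in 1 kind of cell and not in the other is therefore not shown to be a difference between them.

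Before induction, KD-Nap1l2 against NC gave 0 of 32 members at an adjusted p-value under 0.05, against 0.0817% of all genes. At an unadjusted p-value under 0.05 there were 13 members (40.6%), against 13.7% of all genes, and the groups did not overlap in 21 (65.6%), against 43.2%. The median log2 fold change was -0.16 over the members and 0.0106 over all genes. *Adamts5* was nearest to a call, with both KD-Nap1l2 libraries above both NC libraries in the values given above (log2 fold change 0.88, SE 0.16, edgeR adjusted p = 0.1). DESeq2 called it (adjusted p = 0.000218), as did the fits without a low-count filter (0.0421) and without KD-Nap1l2 replicate 1 (0.0197). *Adamts16* was at 2.19 times its NC level (log2 fold change 1.13, SE 0.45, adjusted p = 0.331), which became 0.53 on the log2 scale without KD-Nap1l2 replicate 1. *Adamts15* was lower by a log2 fold change of -1.63 (SE 0.51, adjusted p = 0.227), or -0.79 without NC replicate 1. *Adamts13*, the protease of von Willebrand factor, had 86.7 and 76.7 normalized counts in NC against 55.8 and 27.1 in KD-Nap1l2 (log2 fold change -0.97, SE 0.35, adjusted p = 0.281), and -1.59 without KD-Nap1l2 replicate 1. The inhibitor *Timp1* had 1826 and 1911 normalized counts in NC against 2161 and 2613 in KD-Nap1l2 (log2 fold change 0.35, SE 0.13, adjusted p = 0.291).

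After induction, KD-Nap1l2-7d against NC-7d also gave 0 of 32 members, against 0% of all genes, while an unadjusted p-value under 0.05 was found in 6 members (18.8%), against 7.85% of all genes. The groups did not overlap in 18 members, 15 lower and 3 higher in KD-Nap1l2-7d, against 21% of all genes in each direction. DESeq2 and limma also called 0 members here. The median log2 fold change was -0.22 over the members and -0.0056 over all genes. The 3 higher ones, *Timp3*, *Timp1* and *Adamts4*, were chosen for mention after their values were seen. *Timp3* had 23470 and 20180 normalized counts in NC-7d and 35660 and 30690 in KD-Nap1l2-7d (log2 fold change 0.60, SE 0.25, edgeR adjusted p = 0.621), *Timp1* 1599 and 1606 against 1865 and 2034 (0.28, SE 0.13, adjusted p = 0.660), and the aggrecanase *Adamts4* 380 and 395 against 415 and 409 (0.09, SE 0.12, adjusted p = 0.925). Of the lower ones, *Adamts16* had the largest log2 fold change, -2.87 (SE 0.77, adjusted p = 0.495), which was -4.07 without KD-Nap1l2-7d replicate 1. *Adamts15* had -1.34 (SE 0.64, adjusted p = 0.672), *Adamts12* -0.63 (SE 0.17, adjusted p = 0.495) and *Adamts13*, with 80.3 and 77.7 normalized counts in NC-7d and 44.1 and 55.4 in KD-Nap1l2-7d, -0.67 (SE 0.35, adjusted p = 0.703). *Adamts15* and *Adamts13* were below the control cells without overlap at both times, as were *Mmp9*, *Mmp14*, *Mmp15*, *Mmp19*, *Mmp27* and *Adamts2*. The share of all genes with this pattern was not counted. The knockdown and induction comparisons share groups, so their values are not independent of each other.

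Among related genes, 13 of 16 matrix substrates of these enzymes were tested. After induction, 2 were called higher and 3 lower in the control cells, with 0 higher and 6 lower in the KD-Nap1l2 cells. Of all genes, 4.83% were called higher and 3.38% lower in the control cells, and 6.84% and 7.36% in the KD-Nap1l2 cells. No list of related genes was tested against these shares, and the lists are short. *Eln*, which codes for elastin, had 12210 and 7567 normalized counts in NC and 220.5 and 463 in NC-7d (log2 fold change -4.85, SE 0.42, edgeR adjusted p = 0.00143), and 7614 and 6478 in KD-Nap1l2 and 133 and 190.1 in KD-Nap1l2-7d (-5.45, SE 0.43, adjusted p = 0.000669). *Dcn*, the proteoglycan decorin, fell by 2.37 and 3.07 on the log2 scale (adjusted p = 0.00935 and 0.00316), and *Col3a1*, a fibrillar collagen, fell by 1.46 and 2.20 (adjusted p = 0.0167 and 0.00317). *Vcan*, versican, a substrate of *Adamts1* and its relatives, rose in the control cells from 5570 and 5757 to 12280 and 14650 normalized counts (log2 fold change 1.25, SE 0.18, adjusted p = 0.00734). Before induction, *Col2a1*, the cartilage collagen, had 96.5 and 97.2 normalized counts in NC against 541 and 606 in KD-Nap1l2 (log2 fold change 2.56, SE 0.31, adjusted p = 0.0478).

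Of 8 genes of the plasminogen activator system, which can activate pro-Mmps through plasmin, 7 were tested. In the control cells 1 was called higher and 1 lower, and in the KD-Nap1l2 cells 1 higher and 2 lower. *Serpinb2*, an inhibitor of urokinase, had 5.91 and 8.41 normalized counts in NC, 54.6 and 76.7 in NC-7d, 18.6 and 8.33 in KD-Nap1l2 and 186.5 and 127 in KD-Nap1l2-7d (log2 fold changes 3.17 and 3.52, edgeR adjusted p = 0.00855 and 0.00319). *Serpine2*, which blocks thrombin and plasminogen activators, fell by 1.33 and 1.29 on the log2 scale (adjusted p = 0.00734 and 0.00589). The 7 Adamts-like genes, relatives without a protease domain, had 5 tested members. Of these, 0 were called higher, while 1 was called lower in the control cells and 2 in the KD-Nap1l2 cells. *Adamtsl3* fell by 1.46 in the control cells and by 1.36 in the KD-Nap1l2 cells (adjusted p = 0.0085 and 0.00795). Of 9 astacins and cathepsins, 6 were tested and 2 were called higher in the KD-Nap1l2 cells, among them *Ctsd*, the lysosomal protease cathepsin D, at 2.00-fold (adjusted p = 0.00671). Of 11 other pericellular regulators, 9 were tested, with 2 called lower in the control cells and 4 in the KD-Nap1l2 cells. The 8 Adam sheddases had 7 tested members, with 1 called higher in the control cells and 1 called lower in the KD-Nap1l2 cells. Of 11 AP-1 and Ets factor genes 0 passed the test in the control cells and 1 was called higher in the KD-Nap1l2 cells.

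Other lists moved with the same comparison. All 7 glucocorticoid-induced genes had a log2 fold change above 0 in both induction comparisons. Of these 7, 4 were called higher in the control cells and 5 in the KD-Nap1l2 cells. Their summed level was 66.0 to 94.1 FPKM in the uninduced and 528 to 626 FPKM in the induced libraries. That of 6 adipocyte markers was 31.0 to 57.9 and 174 to 228 FPKM. Most of this rise was *Fabp4*, with 7.69 to 25.05 FPKM at day 0 and 138 to 181 FPKM at day 7. Of the 4 adipocyte markers tested, 2 were called higher in each induction comparison, and 1 was called lower in the KD-Nap1l2 cells. *Lpl* went from 9.84 and 11.97 FPKM in KD-Nap1l2 to 2.57 and 4.94 in KD-Nap1l2-7d. The 6 osteoblast markers summed to 3.06 to 14.9 FPKM at day 0 and 3.22 to 7.04 FPKM at day 7. *Dmp1* held 9.74 of the 14.92 FPKM in NC replicate 1. Of these 6 markers, 3 were tested and 0 were called. Log2 fold changes were above 0 in 0 of the 3 in the control cells and in 2 of the 3 in the KD-Nap1l2 cells (-1.54 to 1.35). The 10 mesenchymal stromal markers summed to 9016 to 10990 FPKM at day 0 and 4998 to 7089 FPKM at day 7. The 5 endothelial markers summed to 1.07 to 1.56 FPKM at day 0 and 0.34 to 0.63 FPKM at day 7, lower after induction with either construct. *Tek* among them was called lower in the KD-Nap1l2 cells (log2 fold change -2.81, edgeR adjusted p = 0.00825). It held 1.27 and 1.03 FPKM of the sums of 1.56 and 1.21 FPKM in KD-Nap1l2. *Cdh5* went the other way in these cells, from 0.979 and 0 to 3.01 and 4.18 normalized counts (log2 fold change 2.56, edgeR adjusted p = 0.370). The 5 epithelial markers summed to 1.21 to 2.21 FPKM at day 0 and 0.44 to 2.02 FPKM at day 7. *Cdh1* among them was called lower in both induction comparisons (-1.33 and -1.41, edgeR adjusted p = 0.0446 and 0.0232). *Krt5*, the other tested epithelial marker, had 10.8 and 4.67 normalized counts in NC against 57.8 and 0 in NC-7d. These control groups overlapped, with a rise of 1.87 on the log2 scale that was not called (adjusted p = 0.437). The KD-Nap1l2 cells gave -1.75 for *Krt5* (adjusted p = 0.733), from at most 2.94 normalized counts. The part of any of these in the member results was not tested.

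The 11 members that were not tested had too few counts: *Mmp12*, *Adamts8* and *Adamts17* had means of 0.0813 to 0.09 FPKM, and *Mmp25*, *Mmp1a*, *Mmp21*, *Mmp10*, *Mmp20*, *Adamts19*, *Adamts18* and *Adamts3* had 0.025 FPKM or less, with at most 2.14 normalized counts in any library. *Adamts8* was tested when NC replicate 2 was left out, and it was then called lower in NC-7d than in the remaining NC library (log2 fold change -4.24, edgeR adjusted p = 0.0388), which is the library with 40.4 normalized counts. The remaining tested members, without a call in any of the 5 comparisons when all libraries were fitted, included *Mmp11* (553 to 1878 normalized counts), *Mmp19* (1364 to 2856), *Mmp24* (542 to 780.1), *Adamts2* (1134 to 2079), *Adamts4* (324 to 426), *Adamts7* (263 to 448), *Adamts9* (461 to 928) and *Adamts14* (292 to 466.5). *Mmp15*, *Mmp17* and *Mmp23* had 36.5 to 99.5, 10.7 to 20.6 and 16.6 to 40.7 normalized counts. *Mmp19* was nearest to a call, with 1563 and 1364 normalized counts in KD-Nap1l2 and 2132 and 2084 in KD-Nap1l2-7d (log2 fold change 0.53, SE 0.15, edgeR adjusted p = 0.0577). It was called by DESeq2 (adjusted p = 0.0272), with the replicate block (0.0363) and without NC-7d replicate 1 (0.0474) or 2 (0.047). *Adamts9* had a log2 fold change of -0.83 (SE 0.29, edgeR adjusted p = 0.0983) in the same comparison. It was called by DESeq2 (0.0324), with only the libraries compared (0.0178) and without NC-7d replicate 1 (0.0208) or 2 (0.0209). *Adamts6*, with 213 and 212 normalized counts in NC and 123 and 32.6 in NC-7d, had a log2 fold change of -1.46 (SE 0.51, adjusted p = 0.127). It was called by DESeq2 (0.0267), by limma on log2(FPKM + 1) (0.0481) and without NC-7d replicate 1 (-2.70, adjusted p = 0.0107).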

How the data were processed

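RNA-seq was done on 8 libraries of C3H10T1/2 cells, 2 in each of 4 groups taken from the labels. The authors deposited estimated counts per gene and per transcript, not normalized, and FPKM values, scaled for transcript length and library depth. The submitters' processing notes name BWA, Bowtie2, RSEM and GRCm38.p6, without versions or roles. The authors' deposited tables of comparisons (fold changes, p-values and q-values) were not used.

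Counts were rounded (41.1% of genes and 18 members held a count that was not whole), scaled by TMM, filtered with filterByExpr to 13470 genes and fitted over all 8 libraries with edgeR 4.0.16 in R 4.3.3. Group differences were tested with the quasi-likelihood test and Benjamini-Hochberg adjustment over all genes tested, with a call at an adjusted p-value under 0.05. A normalized count is a count divided by the library's effective size relative to the mean, and a standard error (SE) was taken as the absolute log2 fold change over the square root of F. With 2 libraries a group, an exact permutation test of a single value cannot give a p-value under 0.333. Alternatives were DESeq2 1.42.0, RLE size factors, no low-count filter, a minimum of 10 counts in each library, fits restricted to the 2 groups compared, a replicate block, limma 3.58.1 on log2(FPKM + 1) and log2(FPKM + 0.1), and leaving out each library in turn, where a lone library is assumed to vary like the other groups. On simulated induction data in KD-Nap1l2 cells, edgeR tested 13283 of 13470 genes and called 82 of 100 genes given a 4-fold change, 44 of 100 given a 2-fold change and 6 unchanged genes.

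The members and gene lists were chosen with earlier results of these data known. Named with values were all members called in any of 5 comparisons, for each comparison of groups the 4 with the largest log2 fold change among those with at least 50 normalized counts on average and no overlap, the 12 of highest mean FPKM, and *Mmp2*, *Mmp3*, *Mmp9*, *Mmp13*, *Mmp14*, *Adamts1*, *Adamts4*, *Adamts5* and the Timps. Related genes were named where called, at most 6 per comparison by adjusted p-value; cell markers and glucocorticoid-induced genes are given as summed levels. The untested members, *Mmp27*, *Adamts9*, *Tek*, *Cdh5*, *Cdh1*, *Krt5*, *Csf1r*, *Lyz2*, *Cd68*, *Fabp4*, *Lpl* and *Dmp1* were described after their values were seen. *Mmp7*, *Mmp1b*, *Adamts20* and some markers (*Adgre1*, *Mpo*, *Acp5*, *Dcstamp*) were not analysed here. Reads that match near-identical copies were assigned by the authors' estimation. All 43 members matched RefSeq (GRCm38.p6) by gene ID, which gave coordinates and start regions. Count ratios have exact conditional binomial intervals. Python 3.11.15, scipy 1.17.1 and matplotlib 3.10.9 were used.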

Additional observations from a re-analysis of the deposited data

Results flagged for a closer look

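*Adamts16* was flagged because the shRNA libraries lay above the control libraries before induction and below them after it, without overlap at either time. The share of all genes with such a reversal was not counted, so it is not shown to be unusual. Groups did not overlap in 43.2% of all genes at day 0, and in 21% in each direction at day 7. The log2 fold change of knockdown against control was 1.13 at day 0 and -2.87 at day 7. The difference between these, -4 on the log2 scale (SE 0.89), was tested as an interaction and had an edgeR adjusted p-value of 0.439.

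*Adamts12* showed the same reversal at a higher level of expression, with log2 fold changes of 0.55 and -0.63 and a difference of -1.17 (SE 0.23, edgeR adjusted p = 0.403). DESeq2 called both differences (adjusted p = 0.0102 for *Adamts16* and 0.0176 for *Adamts12*).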

How the results depend on the processing

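With 2 libraries per group, most calls depended on which libraries and which fit were used. The number of members called in the control cells after induction was 5, and it was 1 with at least 10 counts in every library, which leaves 25 members tested, 2 with only the libraries compared, and 0 to 6 when 1 library was left out (0 without NC replicate 1, 3 without either KD-Nap1l2-7d library). In the KD-Nap1l2 cells it was 10, with 5 at 10 or more counts in every library and 3 to 13 when 1 library was left out (4 without KD-Nap1l2-7d replicate 1 and 3 without replicate 2). For KD-Nap1l2 against NC it was 0, but 1 (*Adamts5*) with DESeq2 and 1 with no low-count filter, and 0 to 1 when 1 library was left out. For the difference of the responses it was 0, and 2 with DESeq2. For KD-Nap1l2-7d against NC-7d it was 0 in all alternatives run. Over all genes, DESeq2 called 454 for KD-Nap1l2 against NC where edgeR called 11, 82 against 0 for the day 7 groups and 100 against 0 for the difference; leaving out NC replicate 1 took NC-7d against NC from 1106 to 122, and leaving out KD-Nap1l2-7d replicate 1 took KD-Nap1l2-7d against KD-Nap1l2 from 1912 to 305. The cause of these shifts was not tested.

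Directions of the named log2 fold changes held except in the difference of responses: for *Mmp9* (-1.12) it was 0.27 and 0.048 in limma on log2(FPKM + 1) and log2(FPKM + 0.1), and -1.75 to 0.20 when 1 library was left out; for *Mmp28* (-0.29) it was -0.63 to 0.14 and for *Adamts15* (0.28) -0.55 to 0.81. None of these differences was called. limma on log2(FPKM + 1) gives smaller values for genes of low FPKM, such as -1.24 for *Mmp9* in the control cells, against -4.05.

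The replicate numbers gave no sign of pairing: deviations of same-numbered libraries from their group means correlated by -0.0612 to 0.104. With a replicate block, members called were 0, 0, 4, 11 and 0 in KD-Nap1l2 against NC, KD-Nap1l2-7d against NC-7d, NC-7d against NC, KD-Nap1l2-7d against KD-Nap1l2 and the difference of responses, against 0, 0, 5, 10 and 0.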
